A study of Mus musculus with 12 samples.

Results

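Ccdc3, Cnmd, D630039A03Rik, Gm15128, Lgi3 and Pald1 are 6 of the 38986 genes listed for 12 mouse teratomas. They were chosen by their counts, which were lower in teratomas expressing WT Dnmt3L than in those carrying the empty vector (ET), and higher in each group labelled as a Dnmt3L mutant than in WT. Those 3 comparisons picked the genes, so their values in them are given as a description only. All 6 genes were found in the files, and all 6 were among the 18405 genes that passed the filter on low counts.

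Teratomas are tumours of mixed tissues that form when pluripotent cells are placed in an adult mouse. Here R1 mouse embryonic stem (ES) cells were injected under the skin of 8-week-old male NOD-PrkdcEM1 mice, an immunodeficient strain, and the tumours were taken at day 21. For every library the labels give leukemia inhibitory factor (LIF) at 100 IU/ml, which differs from the concentration in the paper's methods. Every group carried the pEZ-LV235 overexpression vector with its CAG promoter, which held no insert in ET, unmodified Dnmt3L in WT, and Dnmt3L with a lysine replaced by arginine in K238R and K412R. There were 3 libraries in each of the 4 groups, 1 library from each teratoma, and host blood, vessel and immune cells can contribute RNA to any of them. The labels do not state whether the 3 teratomas of a group came from separate injections of separate cultures, so the p-values measure the spread between these tumours.

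Dnmt3L has no catalytic activity of its own and assists the enzymes that place methyl groups on CpG dinucleotides. Its transcript, Dnmt3l, was the check of the labels. Dnmt3l was at 165 CPM (a gene's share of the library's counts, scaled so that all genes sum to 1000000), 203 CPM and 204 CPM in the 3 WT libraries. It was at 2.22, 0.65 and 7.62 CPM in ET and at 38.9, 38.3 and 26.0 CPM in K412R. In the K238R-labelled libraries it was at 1.89, 1.11 and 0.54 CPM, inside or under the ET range, so the transcript of the labelled construct did not show in them and they are called here only by their label. Library totals lay between 16957677 and 18546100 counts. Over the 12 pairs of replicates within groups, chi-square divided by its degrees of freedom was 10.5 to 52.6, where counting error alone gives values near 1. The ET replicate 2 and WT replicate 1 libraries stood apart in their effect on the tests: 9 genes passed between WT and ET with all libraries, 5784 without ET replicate 2 and 1309 without WT replicate 1.

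The 6 genes have little in common by name. Ccdc3 encodes a secreted coiled-coil protein known from fat and endothelial cells. Lgi3 is a secreted protein of the leucine-rich glioma-inactivated family, whose members bind receptors of the ADAM22 group on neurons. Cnmd, chondromodulin, is a cartilage glycoprotein that restrains the growth of blood vessels. Pald1, paladin, is a phosphatase-domain protein known from endothelium, where it acts in VEGF receptor signalling. D630039A03Rik is a protein-coding gene whose role is little known. Gm15128 is a predicted protein-coding gene in a family of X-linked copies. In the RefSeq gene table, Ccdc3 lies on chromosome 2, D630039A03Rik on 4, Pald1 on 10, Cnmd and Lgi3 on 14, and Gm15128 on X.

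Because Dnmt3L acts on CpG methylation, the bases before the annotated start of each gene are shown with every CpG in capitals. RefSeq windows (mouse GRCm38.p6) were at hand for 4 of the 6 genes, and each line gives the 250 bases 5′ of the start, read 5′ to 3′ on the gene's own strand. Lgi3 and Gm15128 are named only.
Ccdc3: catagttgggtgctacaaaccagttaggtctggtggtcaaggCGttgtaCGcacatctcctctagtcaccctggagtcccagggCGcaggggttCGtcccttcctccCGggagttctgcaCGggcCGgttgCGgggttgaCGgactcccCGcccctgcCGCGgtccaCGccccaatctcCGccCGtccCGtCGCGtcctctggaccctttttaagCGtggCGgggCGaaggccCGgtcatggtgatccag
Pald1: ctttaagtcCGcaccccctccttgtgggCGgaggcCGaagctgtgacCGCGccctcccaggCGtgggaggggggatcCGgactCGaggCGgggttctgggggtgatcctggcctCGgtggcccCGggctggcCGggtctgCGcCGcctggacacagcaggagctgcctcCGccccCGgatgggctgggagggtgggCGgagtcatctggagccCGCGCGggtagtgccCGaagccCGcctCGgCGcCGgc
D630039A03Rik: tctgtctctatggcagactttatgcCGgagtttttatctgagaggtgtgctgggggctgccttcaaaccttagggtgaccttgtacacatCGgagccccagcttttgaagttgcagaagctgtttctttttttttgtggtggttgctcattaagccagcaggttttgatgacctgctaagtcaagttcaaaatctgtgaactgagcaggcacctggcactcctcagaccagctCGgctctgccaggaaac
Cnmd: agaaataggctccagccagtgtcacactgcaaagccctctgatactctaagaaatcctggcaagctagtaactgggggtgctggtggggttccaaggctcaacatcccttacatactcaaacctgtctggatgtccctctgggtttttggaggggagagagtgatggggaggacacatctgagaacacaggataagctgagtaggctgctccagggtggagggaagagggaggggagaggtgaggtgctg
The windows ran chr2:5137526-5137775 on the plus strand for Ccdc3, chr10:61383340-61383589 on the minus strand for Pald1, chr4:57916265-57916514 on the minus strand for D630039A03Rik and chr14:79662184-79662433 on the minus strand for Cnmd. The count files were made on GRCm39, and no position was carried between the builds. CpG counts were taken over 300 bases, the 250 shown plus the 50 after the start. Pald1 held 32 CpGs and Ccdc3 28, more than 90.5% and 85.8% of the 32851 windows in the table. D630039A03Rik held 6, near the median of 7 over all windows, and Cnmd held 1, with fewer in 5.4% of windows. The observed over expected CpG ratio was 0.85 for Ccdc3, 0.769 for Pald1, 0.32 for D630039A03Rik and 0.047 for Cnmd, with a median of 0.384 over all windows. The 4 promoters thus ran from CpG-rich to CpG-poor. Of 5 short motifs searched on both strands, 4 were in none of the windows: the E-box CACGTG, held by 7.15% of all windows, the E2F-like TCCCGC (20%), the SOX-like ACAAAG (18.7%) and the TATA-like TATAAA (13.6%). The motif CCAAT was in the Ccdc3 window and not in the other 3, and in 37.4% of all windows. None of these letters says that a factor does or does not bind there, and methylation was not among the measurements.

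Among the secreted proteins, the level of Ccdc3 was 118, 73.1 and 94.6 CPM in ET and 48.9, 45.4 and 39.4 CPM in WT. In the K238R-labelled libraries it was 104, 92.3 and 102 CPM, and in K412R 131, 118 and 129.7 CPM. No WT library reached any of the other 9, and the lowest of those, ET replicate 2, was 1.5 times the highest WT library. The WT mean was 46.9% of the ET mean. The fitted log2 difference between WT and ET was -1.07 (SE 0.14), and -1.22 without ET replicate 2.

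Lgi3 was at 91.1, 84.5 and 73.4 CPM in ET and at 46.6, 50.2 and 41.4 CPM in WT. It was at 94.8, 86.7 and 98.5 CPM in the K238R-labelled libraries and at 140.2, 105 and 140.0 CPM in K412R. The WT mean was 55.5% of the ET mean. The K412R libraries were all above the ET libraries, as in 5.01% of all genes, and that difference had edgeR adjusted p = 0.225. The level of Lgi3 in the lowest library outside WT was 1.46 times that in the highest WT library.

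Cnmd was a low gene with few counts behind each value. It had 53, 53 and 45 counts in ET (3.01, 3.13 and 2.50 CPM) and 12, 16 and 9 in WT (0.67, 0.89 and 0.51 CPM). It had 55, 61 and 48 counts in the K238R-labelled libraries and 66, 55 and 74 in K412R. The WT mean was 24.1% of the ET mean, and the lowest library outside WT held 2.80 times the level of the highest WT library. Among the 5 genes with counts in WT, Cnmd had the widest gap between the WT libraries and the rest.

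Pald1, the phosphatase-domain protein, had the narrowest gap of the 5 genes with counts in WT (1.30 times), with a coefficient of variation between 3.35% and 7.90% in each group. Its level was 63.8, 60.6 and 59.9 CPM in ET and 42.6, 39.6 and 36.7 CPM in WT. It was 60.7, 56.3 and 66.0 CPM in the K238R-labelled libraries and 62.2, 55.5 and 62.7 CPM in K412R. The 9 libraries outside WT all lay between 55.5 and 66.0 CPM, and the WT mean was 64.5% of the ET mean.

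D630039A03Rik, of little known role, varied more within groups. It was at 15.6, 9.02 and 11.3 CPM in ET and at 4.78, 4.29 and 3.82 CPM in WT. It was at 12.3, 9.72 and 14.4 CPM in the K238R-labelled libraries and at 14.9, 13.6 and 16.6 CPM in K412R. The WT mean was 35.9% of the ET mean, and the coefficient of variation was 27.7% in ET against 11.1% in WT.

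Gm15128 had 0 counts in each WT library. It had 17, 22 and 26 counts in ET, 49, 26 and 21 in the K238R-labelled libraries, and 8, 4 and 4 in K412R. With the WT group set to a floor of 3 counts, the observed level of Gm15128 in ET was 21.96-fold higher than that floor. The ratio was 31.0-fold in the K238R-labelled libraries and 5.31-fold in K412R, where it rests on 16 counts. It makes no allowance for counting error outside WT, nor for reads shared with the near-identical copies described below. The K412R mean was 24.2% of the ET mean. Every K412R library was below every ET library, as in 5.74% of all genes, and the difference had edgeR adjusted p = 0.370. By these few counts Gm15128 was low in K412R as well as in WT, and the description low only in WT is unsafe for it. The order of its group means, labelled K238R, ET, K412R, WT, was the reverse of that of Dnmt3l. The last place of WT was set by the choice of the genes. From ET to the K238R-labelled group the log2 step was 0.47 (95% interval -0.45 to 1.40), so their order is uncertain. Ccdc3, Cnmd, D630039A03Rik and Lgi3 had their highest mean in K412R, and Pald1 had its highest in ET. A relation to the level of Dnmt3l was not tested.

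**Figure D1:**
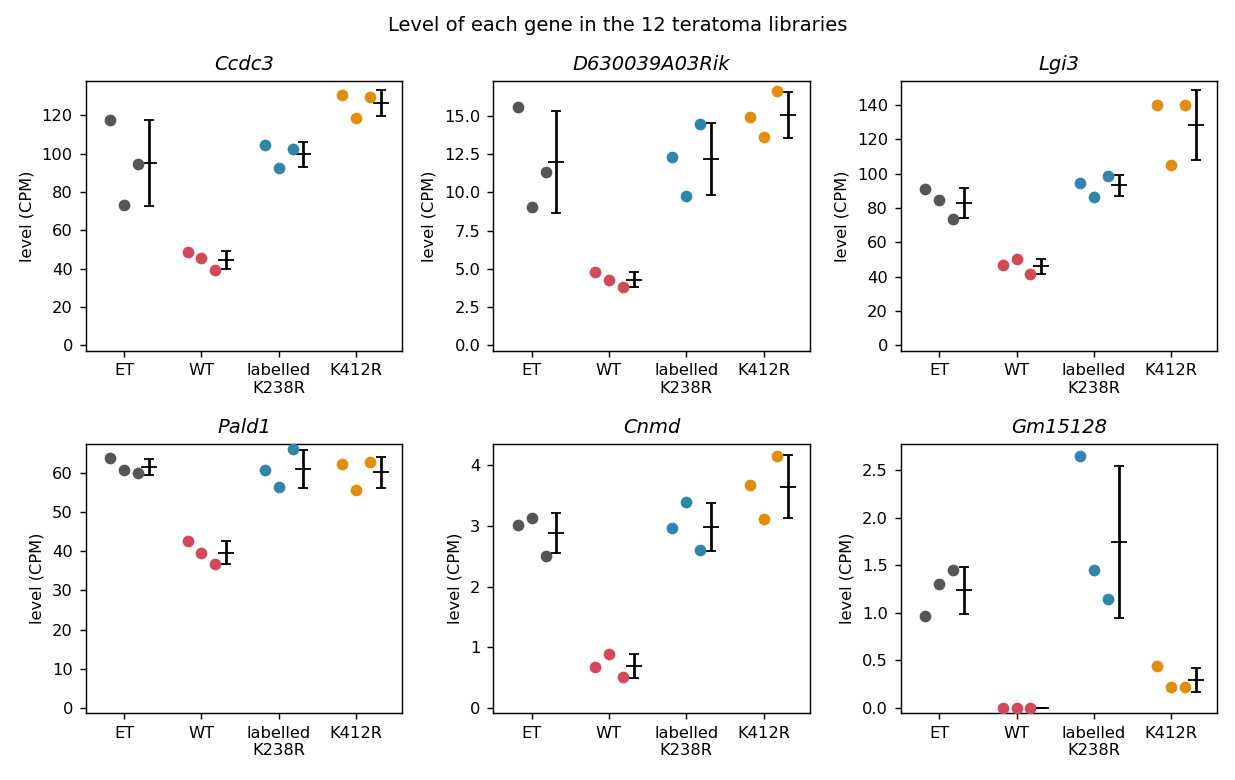
Level of each gene (CPM, linear axis from 0) in the 12 libraries, 1 point per library, with the group mean and SD (n = 3) as a bar beside the points. The 3 WT points lie under the other 9 in every panel, and the K412R points of Gm15128 lie near 0.

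By choice of the genes, the 3 WT libraries lay below the 9 others for all 6. Of the 18405 genes tested, 661 (3.59%) showed this. With edgeR's quasi-likelihood test and Benjamini-Hochberg adjusted p under 0.05, 8 genes (0.0435%) were lower and 1 (0.00543%) higher in WT than in ET, 22 (0.12%) were higher in the K238R-labelled libraries than in WT and 247 (1.34%) were higher in K412R than in WT. The 6 genes and Dnah11, a motor protein of motile cilia, were the 7 (0.038%) that passed all 3. With any 1 library dropped, all 6 passed again without ET replicate 2 or without WT replicate 1, and none of the 6 passed all 3 in the other 10 cases, nor in fits of 2 groups alone. The nearest inside the threshold by the largest of the 3 adjusted p-values were Dnah11 at 0.0432, Gm15128 at 0.0394 and Lgi3 at 0.0353. The nearest outside were Vtn and Ism1, both at 0.0537, and Plekha5 at 0.0549. The 3 comparisons share their WT libraries, so a low WT group enters all of them. The log2 differences between WT and ET were -2.02 for Cnmd, -1.45 for D630039A03Rik, -0.82 for Lgi3 and -0.61 for Pald1, and without ET replicate 2 they were -1.95, -1.61, -0.80 and -0.61.

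The genes differed widely in abundance. Per kilobase of exon, on the GENCODE M21 gene models, the mean level over the 9 libraries outside WT was 40.1 CPM per kb for Ccdc3, 26.0 for Lgi3 and 13.4 for Pald1. It was 4.62 CPM per kb for D630039A03Rik, 1.72 for Cnmd and 0.535 for Gm15128. Ccdc3 stood above 95.3% of the 16609 genes with a length and Cnmd above 26.9%. In WT the same ranks were 85.4% and 7.49%. In bulk tissue, fewer cells of a type and less RNA per cell cannot be told apart, and this holds for every level given here.

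The comparisons with ET of the groups labelled as mutants, and of these groups with each other, were not used to choose the genes, though they rest on the same libraries. Ccdc3, Cnmd, D630039A03Rik and Pald1 showed little difference between ET and the libraries labelled K238R, with group means from 99.3% to 105% of the ET mean. The 95% intervals of the log2 difference were -0.26 to 0.36 for Ccdc3, -0.46 to 0.54 for Cnmd, -0.42 to 0.42 for D630039A03Rik and -0.20 to 0.15 for Pald1. Lgi3 was 0.15 higher on the log2 scale (interval -0.10 to 0.41). Gm15128 was 0.47 higher with a wide interval, -0.45 to 1.40. None of the 6 had all 3 libraries of this group above or all below the ET libraries, as 4.93% and 4.24% of all genes did. None of the 6 passed, and no gene of the 18405 did, with 1032 (5.61%) at an unadjusted p under 0.05 in edgeR and 14 (0.0761%) called by DESeq2, none of them among the 6.

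K412R stood above ET for Lgi3 and Ccdc3. Lgi3 was 0.64 higher on the log2 scale (SE 0.12, interval 0.38 to 0.89, unadjusted p = 0.000146 and adjusted p = 0.225 in edgeR), and all 3 K412R libraries were above all 3 ET libraries. Ccdc3 was 0.42 higher (interval 0.11 to 0.72, edgeR adjusted p = 0.524), again without overlap, a pattern that 5.01% of all genes showed. Cnmd was 0.35 higher (interval -0.15 to 0.84) and D630039A03Rik 0.34 higher (interval -0.09 to 0.76). Pald1 differed by -0.02 (interval -0.20 to 0.15). Gm15128 was 2.01 lower (interval -3.10 to -0.93, edgeR adjusted p = 0.370), without overlap, as 5.74% of all genes were. No gene passed the adjusted threshold between K412R and ET in edgeR, where 1456 genes (7.91%) were at an unadjusted p under 0.05. DESeq2 called 90 genes (0.542%), Lgi3 among them (adjusted p = 0.000693). Lgi3 also passed in edgeR without ET replicate 2 (0.67 higher, adjusted p = 0.0336), a fit in which 284 genes passed.

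Between K412R and the libraries labelled K238R none of the 6 passed in edgeR, where 4 of all genes tested (0.0217%) were higher in K412R and 0 lower. The log2 difference was 0.48 for Lgi3 (interval 0.23 to 0.74, adjusted p = 0.143), 0.37 for Ccdc3 (interval 0.06 to 0.68, adjusted p = 0.330) and -2.49 for Gm15128 (interval -3.55 to -1.42, adjusted p = 0.102). For Pald1 it was 0.00 (interval -0.17 to 0.18). DESeq2 called 373 genes (2.11% of those with an adjusted p), among them Lgi3 (adjusted p = 0.0131) and Gm15128 (adjusted p = 0.00644). In order of mean level, Ccdc3, Cnmd, D630039A03Rik and Lgi3 ran K412R, labelled K238R, ET, WT, with no step among the upper 3 groups past the adjusted threshold in edgeR, while for Pald1 the means of both groups labelled as mutants lay at 97.9% and 99.3% of the ET mean.

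**Figure D2:**
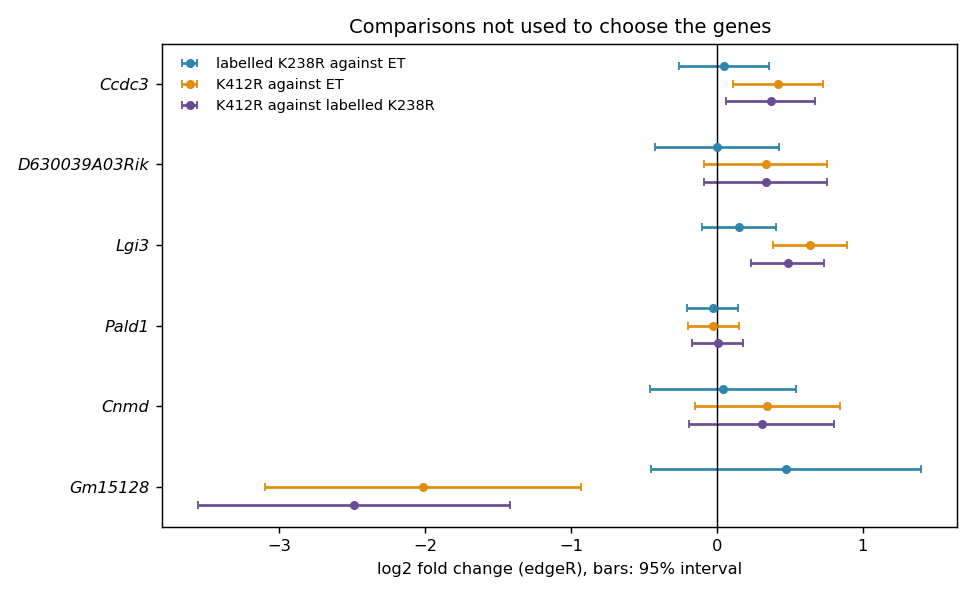
Fitted log2 fold change of each gene between the groups labelled as mutants and ET, and between these groups, with 95% intervals as bars (n = 3 libraries per group). The intervals of Pald1 lie closest around 0, those of Lgi3 in K412R lie above 0, and Gm15128 lies about 2 log2 units lower in K412R.

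The zero counts of Gm15128 in WT need its family beside them. Its longest GENCODE M21 transcript was between 95.6% and 99.6% identical to that of 12 other genes, 11 of them in the count files (Gm10439, Gm15080, Gm15085, Gm15091, Gm15093, Gm15097, Gm15107, Gm15114, Gm15127, Luzp4 and Ott). A read from any of these transcripts can match several of them, and the authors' quantifier divides such reads by estimate. The other 5 genes had no other gene at 95% identity or more over at least 90% of the transcript. Summed over Gm15128 and its copies, there were 301, 59 and 384 counts in ET and 68, 43 and 53 in WT. The libraries labelled K238R held 210, 283 and 368, and K412R held 57, 155 and 98. The family was thus counted in every WT library, and ET replicate 2 and K412R replicate 1 lay inside the WT range.

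Gm15128 took 5.65%, 37.3% and 6.77% of the family's counts in ET, 23.3%, 9.19% and 5.71% in the K238R-labelled libraries, 14.0%, 2.58% and 4.08% in K412R and none in WT. The share was highest in ET replicate 2 and did not follow the family total, since K412R replicate 1 and WT replicates 2 and 3 had lower totals with shares of 14.0% and 0. As 1 unit, the family was 2.16 lower in WT than in ET on the log2 scale (SE 0.56, edgeR adjusted p = 0.101), 2.30 higher in the K238R-labelled libraries than in WT (SE 0.56, adjusted p = 0.0996) and 0.90 higher in K412R than in WT (SE 0.56, adjusted p = 0.352). None passed. Without ET replicate 2 the difference between WT and ET was -2.61 (adjusted p = 0.00315) and that between the libraries labelled K238R and WT 2.31 (adjusted p = 0.00636), while that between K412R and WT was 0.92 (adjusted p = 0.121). The level of the row named Gm15128 is therefore uncertain, and how much of its pattern comes from the division of shared reads was not tested.

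**Figure D3:**
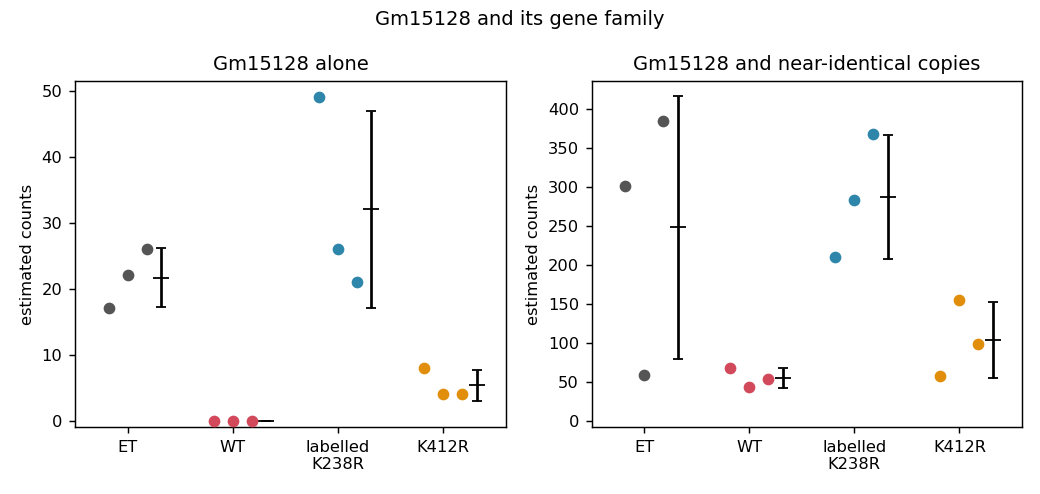
Estimated counts (linear axes from 0) of Gm15128 alone and of Gm15128 with its 11 near-identical copies, 1 point per library, with the group mean and SD (n = 3). Gm15128 is at 0 in WT, whereas the family holds 43 to 68 counts there and overlaps with ET and K412R.

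Co-expression was described by Pearson's r of log2(CPM + 0.5) over the 12 libraries. Each library holds all 6 genes, so the points share depth and tissue make-up, and since the genes were chosen for a low WT group, r over 12 libraries is high by that choice. The mean r over the 15 pairs was 0.82 over all 12 libraries, 0.15 over the 9 libraries outside WT and 0.29 after each group was centred on its mean. Ccdc3 and D630039A03Rik were the pair that kept a close course within groups. Their r was 0.99 over 12 libraries, 0.91 over the 9 and 0.90 after centring, and replicate 2 was the lowest library for both in ET, in the group labelled K238R and in K412R. Lgi3 and Cnmd had r = 0.94 over 12 and 0.78 over 9 libraries, and Lgi3 and Ccdc3 0.95 and 0.77. Over the 9 libraries Pald1 had r = 0.52 with D630039A03Rik, 0.24 with Lgi3, 0.20 with Ccdc3 and -0.09 with Cnmd. After centring these were 0.75, 0.78, 0.59 and 0.19. Gm15128 ran against Lgi3 (r = -0.72), Ccdc3 (-0.64), Cnmd and D630039A03Rik (both -0.59) outside WT. Centred on the group means, its r was -0.03 with Lgi3, -0.08 with Ccdc3, 0.02 with Cnmd and -0.28 with D630039A03Rik. The negative values outside WT thus lay mostly between the group means. Over all 12 libraries the r of Gm15128 was between 0.43 with Lgi3 and 0.73 with Pald1, the lowest values of the 15 pairs.

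**Figure D4:**
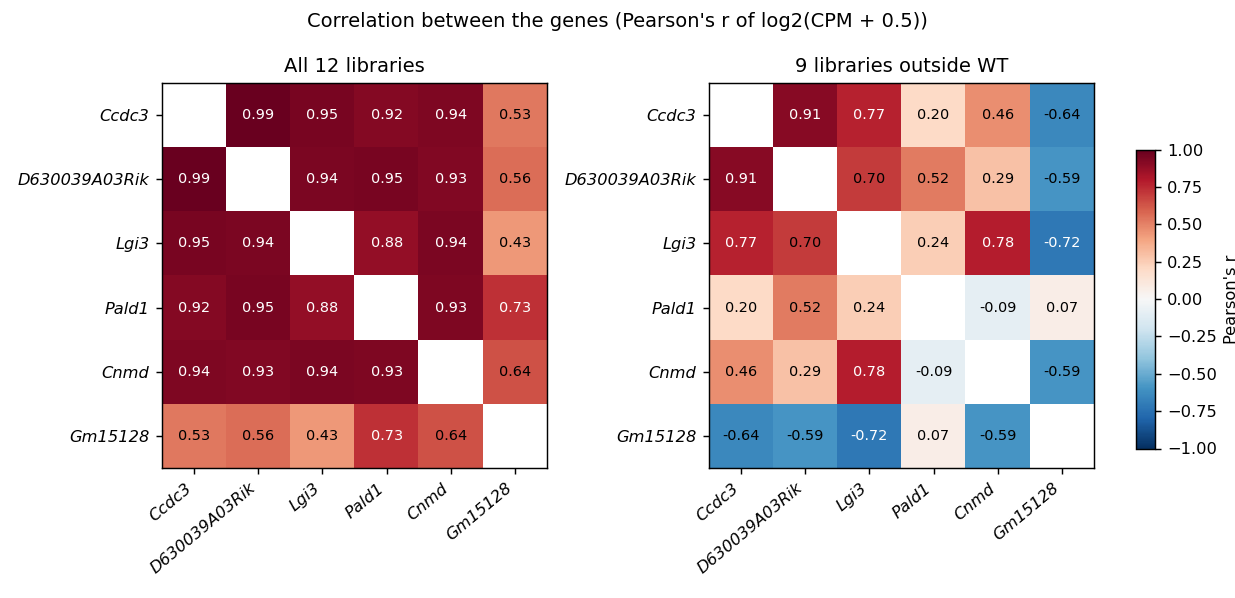
Pearson's r between the 6 genes over all 12 libraries and over the 9 libraries outside WT (colour from -1 to 1, values printed). Outside WT the block of high values is left at Ccdc3, D630039A03Rik and Lgi3 and at Lgi3 with Cnmd, and Gm15128 turns negative with 4 genes.

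Gene by gene, the closest partners were these. For Ccdc3 they were D630039A03Rik, Vtn (vitronectin, an adhesive plasma and matrix protein, r = 0.98), Plekha2 (0.98), Ferd3l (0.97), a bHLH factor of the midbrain floor plate, and Tctn2 (0.97), a protein of the ciliary transition zone. Vtn kept r = 0.91 over the 9 libraries outside WT and 0.95 after centring. Its mean was 62.5 CPM in WT against 185 CPM in ET, 179 CPM in the K238R-labelled group and 225 CPM in K412R. For D630039A03Rik they were Ccdc3, Tctn2 and the receptor Gpr37 (both r = 0.98), Plekha2 and Vtn. Gpr37 (r = 0.96) and Tctn2 (r = 0.95) were also among its 5 closest over the 9 libraries. Of their 5 closest partners over 12 libraries, Ccdc3 and D630039A03Rik shared 3 (Plekha2, Tctn2 and Vtn), and of the 5 closest over the 9 libraries outside WT they shared 0. Ccdc3 had 113 genes at r of 0.9 or more over 12 libraries and D630039A03Rik 118 (0.614% and 0.641% of 18404).

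For Lgi3 the closest gene was Bmp1, the protease that trims procollagens and chordin, with r = 0.98 over 12 libraries, 0.96 over 9 and 0.90 after centring. The mean of Bmp1 was 132 CPM in WT against 212 CPM in ET, 225 CPM in the K238R-labelled group and 272 CPM in K412R. Bmp1 and Lgi3 are near neighbours on chromosome 14, with 2 listed genes between them, of which 1 was tested. Of the 56 distinct pairs of a gene and a close partner, 4 shared a chromosome and only this pair was so close. The next partners were the transporter Flvcr2 (r = 0.97), Fam174b (0.97), the collagen Col22a1 (0.96) and the secreted protein Ism1 (0.95). Over the 9 libraries the closest was Tsku, a secreted leucine-rich protein (r = 0.98).

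For Pald1 they were Jhy (r = 0.96), a gene needed for normal ependymal cilia, Whrn (0.96), which encodes the scaffold protein whirlin, 4930556M19Rik (0.96), Plekha5 (0.96) and Rfx2 (0.95), a factor that drives cilium genes. Outside WT these fell to between 0.32 and 0.77, and the closest there was Dclre1c (r = 0.97), which had r = 0.32 over all 12. The mean standardised level of 11 motile cilium genes had r = -0.27 with Pald1 over 12 libraries and -0.04 outside WT. Of these 11 genes, 8 were higher in WT than in ET by their fitted values and 3 lower, with a median log2 difference of 0.32. For Cnmd the closest partners were Ism1 (r = 0.96), the long non-coding RNA Halr1 (0.96), Bmp1 (0.95), 2510039O18Rik (0.94) and Lgi3. Outside WT the 5 closest to Cnmd were Ccdc122 and Plekhs1 (both r = 0.97), Dnah2 (0.93), a ciliary motor protein, Col9a1 (0.93), a cartilage collagen, and Slc2a10 (0.92). Cnmd thus varied with a cartilage gene among the other groups, while Col9a1 was at 6.76 CPM in WT against 7.05 CPM in ET. For Gm15128 the closest were Pdcd7 (r = 0.94), Maea (0.90), Smarcb1 (0.89), Itfg2 (0.88) and Anapc7 (0.87), broadly used genes whose WT means were lower than their ET means by small amounts, and 1 gene reached r = 0.9.

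The mean standardised profile of the 6 genes lay between 0.23 and 0.60 in ET, between -1.73 and -1.36 in WT, between 0.34 and 0.65 in the K238R-labelled libraries and between 0.33 and 0.73 in K412R. The 10 genes closest to it were Ferd3l (r = 0.97), 4930556M19Rik, Jhy, Halr1, Plekha2, Plekha5, Vtn, Bmp1, Whrn and Fgd3 (0.94). The mean of Ferd3l was 2.60 CPM in WT against 8.65 CPM in ET, 9.38 CPM in the K238R-labelled group and 10.6 CPM in K412R. That of Jhy was 16.2 CPM in WT and 45.9, 47.1 and 54.2 CPM in the others.

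To place the genes among tissues, each was set beside the mean standardised level of 32 lists, 27 of cell type markers and 5 of related genes. Because the genes were chosen for a low WT group, r over 12 libraries is high by that choice with lists low in WT. By the same choice it is low with lists high in WT, so values over the 9 libraries outside WT are given beside. Over 12 libraries the floor plate list (7 genes of the ventral midline of the neural tube, such as Shh, Foxa2, Foxa1, Spon1, Ntn1 and Slit1) was the closest list for 5 of the 6, with r = 0.95 for D630039A03Rik, 0.94 for Pald1, 0.92 for Ccdc3, and 0.85 for both Lgi3 and Cnmd. Outside WT it stayed the closest for D630039A03Rik (r = 0.80), Pald1 (0.72) and Ccdc3 (0.64), but not for Lgi3 (0.38) or Cnmd (-0.03). Lgi3 and Cnmd were closest there to the airway and lung list (r = 0.73 and 0.74), which rests on 3 tested genes, Foxa1 of the floor plate list among them. The closest list of Gm15128 was that of germ cells, with r = 0.81 over 12 libraries and 0.64 over 9. The list of red blood cell genes was the lowest for the 5 genes other than Gm15128, with r from -0.80 to -0.67 over 12 libraries. Outside WT, r of the same 5 genes with this list lay between -0.65 (D630039A03Rik) and -0.04 (Cnmd).

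The floor plate genes themselves had a summed level of 2007, 1342 and 1918 CPM in ET and of 1047, 880 and 661 CPM in WT. The sums were 1901, 1212 and 1941 CPM in the K238R-labelled libraries and 1901, 1442 and 2013 CPM in K412R. As with Ccdc3 and D630039A03Rik, replicate 2 was the lowest library in each group outside WT. All 7 were lower in WT than in ET, by a median of 1.20 on the log2 scale, and none passed the adjusted threshold, against a median of -0.01 over all genes tested. Among those that passed between K412R and WT were Ntn1 and Foxa1 (log2 differences 0.99 and 1.07, edgeR adjusted p = 0.0164 and 0.0132). The notochord list held 8 tested genes, with Shh and Foxa2 shared with the floor plate list. It was the second closest for the same 5 genes over 12 libraries, with r from 0.78 to 0.83. Outside WT its r was 0.62 for Lgi3, 0.60 for Cnmd, 0.37 for Ccdc3, 0.35 for D630039A03Rik and 0.11 for Pald1. Its median log2 difference between WT and ET was -1.06, and its genes were split. T, Noto, Shh and Foxa2 lay between -3.19 and -1.55, Chrd was at -0.57, Krt18 at -0.30, Krt8 at 0.08 and Krt19 at 0.65. The medians of other lists were below 0 as well. The median was -1.05 for 8 mitosis genes, -1.97 for 8 pluripotency genes and -0.85 for 9 germ cell genes, with 0 passing in each. Of all 18405 genes tested, 9 passed between WT and ET. Only the floor plate list and the airway and lung list had summed levels in WT below all 9 other libraries, and only the astrocyte and red blood cell lists had summed levels above them, out of 32. Foxa1, which is in both of the first pair, made up between 84.6% and 95.9% of the airway and lung sum, and without it that sum was 7.70 to 10.6 CPM in WT and 4.49 to 11.9 CPM in ET. Red blood cell genes, which can come from blood of the host, summed to between 936 and 1192 CPM in WT and to between 241 and 810 CPM elsewhere. The part that any of these tissues plays in the levels of the 6 genes was not tested.

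**Figure D5:**
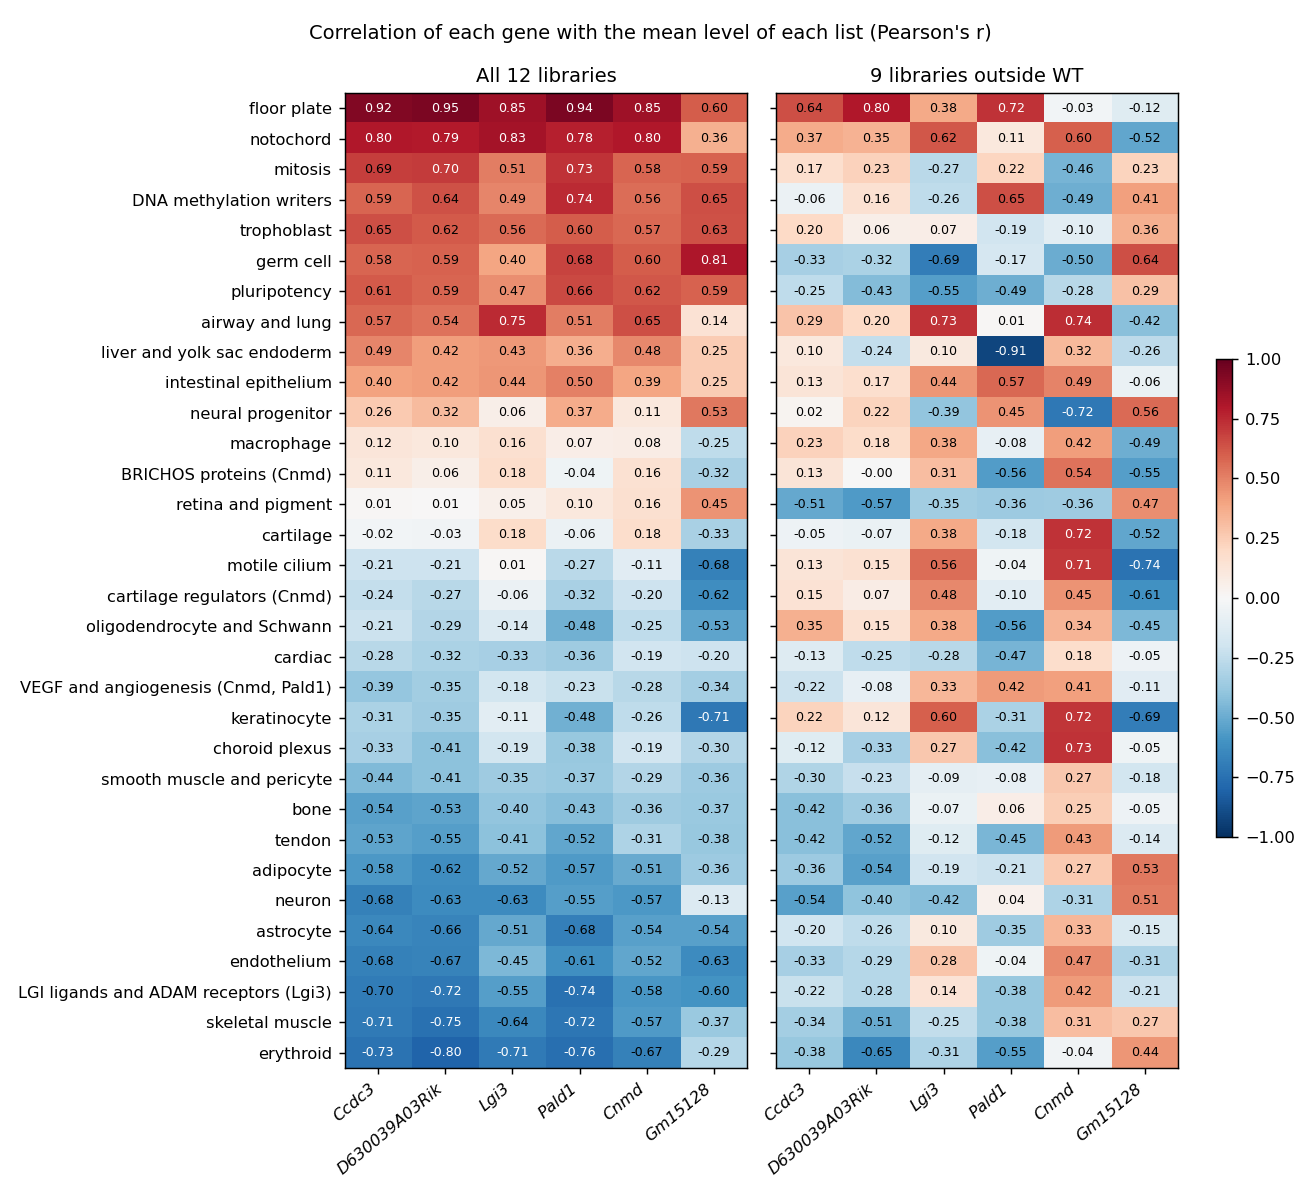
Pearson's r of each of the 6 genes with the mean standardised level of 32 gene lists, over all 12 libraries and over the 9 outside WT (colour from -1 to 1, values printed, lists ordered by D630039A03Rik over 12 libraries). The floor plate row is the highest over 12 libraries for 5 genes and stays high outside WT for D630039A03Rik, Pald1 and Ccdc3.

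The genes were also set beside the tissues in which they are best known. For Cnmd, r with the 12 tested cartilage markers was 0.18 over 12 libraries and 0.72 over the 9 outside WT. Over the same 9 libraries r was similar with the lists of airway and lung (0.74), choroid plexus (0.73), keratinocytes (0.72) and motile cilia (0.71). The cartilage markers had a median log2 difference of 0.05 between WT and ET, with 0 of 12 passing. Since 9 of all 18405 genes passed there, a list with 0 passing is no sign that its genes were unchanged. The collagen Col2a1 was at 131 CPM in ET and 59.7 CPM in WT (log2 difference -1.12, edgeR adjusted p = 0.11), while Col9a1, Col9a2, Col9a3 and Acan differed by between -0.09 and 0.20. Of 11 tested regulators of cartilage such as Sox5, Sox6 and Sox9, 0 passed, with a median of 0.27. Among 7 tested proteins that share the BRICHOS domain with Cnmd, 0 passed between WT and ET, and Itm2a (31.4 CPM in ET, 55.9 in WT) and Tnmd (1.11 and 1.61 CPM) were higher in WT by their means. Sftpc, a lung surfactant protein with the same domain and a neighbour of Lgi3, was the 1 that passed, higher in K412R than in WT (log2 difference 1.21, adjusted p = 0.0434).

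For Lgi3, the 9 genes of its ligand and receptor group were counted in all libraries. None passed between WT and ET, where 9 of all 18405 genes did. In this group 8 of the 9 genes were higher in WT than in ET by their fitted values, with a median of 0.57. Lgi1 was at 14.5 CPM in ET and 23.3 in WT, Lgi2 at 28.9 and 53.2 CPM, and Adam23, a receptor, at 81.0 and 118 CPM. Lgi3 thus had a lower WT level while 8 of these 9 genes, Lgi4 being the exception, had higher fitted WT levels. The r of this list with Lgi3 was -0.55 over 12 libraries and 0.14 outside WT. Neuron markers were also mostly higher in WT than in ET by their fitted values, 11 of 15 with 4 lower and a median of 0.50. Their r with Lgi3 was -0.63 over 12 libraries and -0.42 outside WT. For Ccdc3 and Pald1, all 14 endothelial markers were higher in WT by their fitted values, with a median of 0.37 and 0 passing. Over 12 libraries r was -0.68 for Ccdc3 and -0.61 for Pald1, and outside WT it was -0.33 and -0.04. Summed endothelial levels were 369 to 405 CPM in WT and 222 to 434 CPM in ET. Of the 14 genes of VEGF signalling 0 passed, with a median of 0.05. Their r with Pald1 was -0.23 over 12 libraries and 0.42 outside WT. The fat cell markers had r = -0.58 with Ccdc3 over 12 libraries and -0.36 outside WT. They summed to between 29.5 and 102 CPM in WT and between 39.6 and 53.7 CPM in ET, and 0 of 6 passed. Their median log2 difference was 2.64. By gene it was 3.97 for Adipoq (SE 1.40), 4.48 for Cidec (SE 1.37) and 3.27 for Cfd (SE 1.41). It was 2.01 for Fabp4, 0.78 for Pparg and -0.17 for Lpl. The ET means of Adipoq, Cidec and Cfd were near the floor, at 0.19, 0.08 and 0.35 CPM. The WT libraries of these genes ran from 0.34 to 7.81, from 0.23 to 4.24 and from 0.11 to 6.75 CPM. Of 7 tested genes that write or remove DNA methylation 0 passed between WT and ET, with a median of -0.33. Dnmt3b had means of 15.3 CPM in WT, 40.4 CPM in ET, 18.2 CPM in the K238R-labelled group and 24.7 CPM in K412R.

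Of the genes next to the 6 on their chromosomes, 2 on each side, none that was tested passed between WT and ET. Among all 18405 genes tested, 9 did. Ccdc3 lies between Optn and Camk1d among the tested genes, which were 0.41 and 0.33 higher in WT than in ET without passing. Sugt1 beside Cnmd differed by -0.22 and Lrch2 beside Gm15128 by -0.18. Beside Pald1, Eif4ebp2 differed by -0.37 and Nodal, a signal of early mesoderm and endoderm, by -2.41 (3.25 CPM in ET and 0.60 CPM in WT, edgeR adjusted p = 0.10). The other neighbours of Lgi3, Reep4 and Hr, differed by -0.60 and 0.21. No neighbour overlapped the gene it flanks. The tested neighbours of Gm15128 on its other side, Gm15080 and Gm15107, belong to its near-identical copies.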

How the data were processed

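RNA was sequenced from 12 teratomas with the CORALL RNA-seq V2 kit. The submitters' processing notes name fastp, STAR, Salmon, GATK and the build GRCm39. The authors deposited, per library, estimated counts of genes, not normalised and written as whole numbers. The versions of these tools, strand and whether molecular identifiers were used are not given in the sources used here. CPM were taken on library totals of 16957677 to 18546100. Counts were fitted with edgeR 4.0.16 (R 4.3.3; TMM scaling, filterByExpr, robust quasi-likelihood, 4 group means, 12 libraries) over 18405 genes, with Benjamini-Hochberg adjustment at 0.05; the study's methods name DESeq2, run here (1.42.0) as an alternative. The fit was tested on simulated data. Co-expression used log2(CPM + 0.5). Near-identical copies were sought with blastn 2.17.0 on GENCODE M21 transcripts. Promoter sequences are from RefSeq GRCm38.p6. Chromosome order came from the RefSeq gene table of GRCm38.p6.

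The 6 genes and all gene lists were chosen with earlier results of these data known. Named are the 6 genes, Dnmt3l, the 3 genes nearest the threshold of the choice on each side, the 5 genes most correlated with each of the 6 over 12 and over 9 libraries, the 10 closest to their mean profile, the 2 neighbours on each side, and genes of the lists. Counting error limits low genes: a count of 0 allows up to 3 counts. Replicate numbers were taken from the titles. Over the genes tested, deviations of same-numbered libraries from their group means had r from -0.26 to 0.39 over 18 pairs. For Ccdc3, D630039A03Rik and the floor plate sum, replicate 2 was the lowest library in each group outside WT. The labels do not say that equal numbers share anything, so the numbers were not used to pair libraries. Alternatives were size factors (RLE), DESeq2, no filter, fits of 2 groups alone, a replicate block, each library left out, other pseudocounts, and, added after seeing the data, ET replicate 2 and WT replicate 1 left out together, K412R against the libraries labelled K238R, and family sums for Gm15128. The values of 1 gene of the floor plate list are not reported here, and it stayed in the sums and means of that list.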

Additional observations from a re-analysis of the deposited data

How the results depend on the processing

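Of 647 alternative values of the log2 differences of the 6 genes, 524 kept their sign and side of the threshold, 100 fell short of the threshold, 6 passed it newly and 17 changed sign. The 17 were in the comparisons with ET of the groups labelled as mutants and of these groups with each other, were at most 0.16 in size, and 0 of them were past the threshold with either sign. All 6 passed in the 3 comparisons of the choice with size factors (RLE), DESeq2, no filter and the replicate block, and with ET replicate 2 and WT replicate 1 left out together. When single libraries were left out, the number passing was between 0 and 6, being 6 without ET replicate 2 or without WT replicate 1 and 0 in the other 10 fits, and it was 0 in fits of 2 groups alone, where the adjusted p of each between WT and ET was 0.256. Summed with its copies, Gm15128 no longer passed against ET (-2.16), nor the libraries labelled K238R (2.30) or K412R (0.90) against WT.

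Counts of genes depended on the setting, and the cause was not tested. Between WT and ET, 9 genes passed, against 34 with no filter, 1898 in DESeq2, 0 in the fit of 2 groups alone, 6977 without both ET replicate 2 and WT replicate 1, and 0 to 5784 with each library left out. For the libraries labelled K238R against WT, 41 passed, against 69, 786, 385, 2162 and 2 to 812. For K412R against WT, 375 passed, against 1657 in DESeq2, 1877 with 2 groups alone, 3365 without both libraries and 10 to 1526. Against ET, the libraries labelled K238R gave 0, against 14 in DESeq2, 2 without both libraries and 0 with each library left out, and K412R gave 0, against 1 with no filter, 90 in DESeq2, 460 without both libraries and 0 to 284. The genes past all 3 comparisons of the choice numbered 7, against 17 with no filter, 173 in DESeq2, 0 with 2 groups alone, 726 without both libraries and 0 to 196.

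With the replicate block the 3 comparisons gave 926, 203 and 1131 genes and 55 past all 3, and none of the 6 genes changed its call; the block is not the design, since the labels do not say that equal numbers share anything.

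The mean r of the 6 genes, 0.82, was 0.857 and 0.785 with pseudocounts of 0.1 and 2, 0.154 over the 9 libraries outside WT, 0.292 after centring, and 0.761 to 0.854 with each library left out.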
